A study of Mus musculus with 12 samples.

Results

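The genes described here encode the matrix metalloproteinases (MMPs), the ADAMTS proteases and the tissue inhibitors of metalloproteinases (TIMPs), in mouse 3T3 cells treated with Shld1. They were taken by name: every probe whose annotated gene symbol was Mmp, Adamts or Timp followed by its number belonged to the set. This gave 60 probes for 39 genes, of 16969 genes with a single symbol, with 21 MMP, 14 ADAMTS and 4 TIMP genes. A gene was tested if each group had 2 or more arrays with a value for it, which held for 31 genes, 16 MMP, 12 ADAMTS and 3 TIMP genes.

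3T3 is an established line of mouse embryonic fibroblasts. Shld1 is a synthetic, cell-permeable ligand of a destabilizing domain derived from the protein FKBP12, and a protein fused to that domain is degraded unless the ligand is bound. The groups were untreated control cells and cells given Shld1 at 10 nM, 100 nM or 1 µM, with 3 two-colour arrays in each, 12 in all. The labels name no fusion protein in the cells and give no treatment time. On every array the 3T3 RNA was labelled with Cy5 and a commercial mouse reference RNA (Stratagene) with Cy3. Values are log2 ratios of 3T3 cells over that reference, after the median of each array was set to 0, so a value of 1 means a 2-fold higher signal than in the reference. A ratio sets a gene against itself in the reference and does not rank genes by abundance. The direction of the ratio was taken from the dyes; were it the other way, higher and lower would change places throughout. The labels do not say that replicates were separate cultures, so p-values measure the spread between these samples alone.

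MMPs are zinc proteases that are secreted, or held at the cell surface, as inactive proenzymes, and together they cut collagens, gelatin, proteoglycans and adhesive glycoproteins. ADAMTS proteases are secreted relatives with thrombospondin repeats, known best for cutting the large proteoglycans and for processing procollagen and von Willebrand factor. TIMPs bind the active site of these enzymes, and fibroblasts are a main source of both proteases and inhibitors in connective tissue. Several secreted MMPs are encoded side by side in one cluster, and their transcription is classically induced by cytokines and growth factors through AP-1, the dimer of Fos and Jun proteins.

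That cluster is a run of 10 neighbouring protein-coding genes on chromosome 9 of the RefSeq annotation, in the order Mmp13, Mmp12, Mmp1b, Mmp3, Mmp1a, Mmp10, Mmp8, Mmp27, Mmp20 and Mmp7, all of them MMP genes, and 9 of them belong to the set. The 250 bases before the annotated start were available for 26 of the 39 genes. An AP-1 element (TGANTCA, either strand) was found in 8 of the 26, and each of the 8 (Mmp10, Mmp12, Mmp13, Mmp1a, Mmp1b, Mmp20, Mmp3 and Mmp7) lies in the cluster. Among all 27025 genes with promoters of the same length, 7.8% held one. A TATA box (TATAAA, either strand) was found in 9 of the 26, against 14.3% of all these genes. A GC box (GGGCGG, either strand) was found in 12 of the 26, against 35.4%. Both an AP-1 element and a TATA box were present in 7 of the 26, against 1.65%. The promoters of 3 cluster genes and that of Timp3, the inhibitor with the highest ratio, are shown to set these layouts side by side (RefSeq, GRCm38.p6, plus strand, 5′ to 3′, ending at the base before the start). Capitals mark the AP-1 element and the TATA box in the MMP promoters and the GC box, read on the other strand, in Timp3.
Mmp3: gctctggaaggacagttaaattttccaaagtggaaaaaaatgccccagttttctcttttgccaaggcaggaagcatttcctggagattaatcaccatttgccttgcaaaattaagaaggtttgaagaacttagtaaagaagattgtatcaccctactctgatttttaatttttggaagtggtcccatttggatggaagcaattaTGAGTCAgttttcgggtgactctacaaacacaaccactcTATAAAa
Mmp10: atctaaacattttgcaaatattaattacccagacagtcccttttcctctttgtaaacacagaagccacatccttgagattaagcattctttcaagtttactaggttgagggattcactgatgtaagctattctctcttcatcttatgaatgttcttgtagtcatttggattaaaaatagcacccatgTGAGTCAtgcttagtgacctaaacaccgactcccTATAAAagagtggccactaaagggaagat
Mmp13: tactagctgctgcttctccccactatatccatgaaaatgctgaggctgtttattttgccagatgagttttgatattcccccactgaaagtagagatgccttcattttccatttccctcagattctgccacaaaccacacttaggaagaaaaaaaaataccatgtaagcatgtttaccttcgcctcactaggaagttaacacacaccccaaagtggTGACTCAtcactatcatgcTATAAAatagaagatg
Timp3: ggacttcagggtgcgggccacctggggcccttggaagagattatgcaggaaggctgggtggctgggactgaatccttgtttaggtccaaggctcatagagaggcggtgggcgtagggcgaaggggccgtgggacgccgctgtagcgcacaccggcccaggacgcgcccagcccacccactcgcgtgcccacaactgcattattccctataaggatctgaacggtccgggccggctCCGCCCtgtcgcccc
These stretches are chr9:7445572-7445821 for Mmp3, chr9:7502092-7502341 for Mmp10, chr9:7272264-7272513 for Mmp13 and chr10:86300162-86300411 for Timp3. Counted from the start, the AP-1 element began at base -46 in Mmp3, -63 in Mmp10 and -35 in Mmp13, and the TATA box at -7, -29 and -16 in the same order. The Timp3 promoter held 1 GC box and neither of the other elements. A match of letters is a description and not evidence of binding. The 3 MMP genes, which share both elements at differing positions, did not share a level: Mmp3 and Mmp13 stood far below the reference RNA and Mmp10 above it, as given below.

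Single arrays held values for 30649 to 33615 of the 38784 probes, and before centring their medians ran from -0.20 to -0.10. Of the values that the 60 member probes could have had, 21.0% were blank, against 17.0% over all probes. Markers were called against the reference at an adjusted p under 0.05 (limma), a cut that called 36.0% of all rows higher and 35.8% lower. Among 14 measured fibroblast markers, 11 were called higher in 3T3 cells than in the reference and 1, Pdgfra, was called lower. Some markers of other cell types were called higher as well. These were 4 of 6 chondrocyte and osteoblast, 4 of 9 epithelial, 2 of 6 adipocyte, 1 of 5 muscle and 1 of 4 endothelial markers. Called lower were 1, 4, 3, 0 and 1 markers of these lists in that order. Whether any of these counts differ from the shares of all rows was not tested. Of 10 measured macrophage and leukocyte markers, 2 lay above 0 but none was called higher. The 6 called lower were led by Ptprc (the leukocyte antigen CD45) at -2.42 and Lyz2 (lysozyme) at -1.49. Such markers also helped to set which RNA is the numerator and are no independent check of that. In RNA from a whole culture, fewer cells of a type and less RNA per cell cannot be told apart.

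Against the reference RNA, the inhibitors Timp3 and Timp1, the gelatinase gene Mmp2 and the aggrecanase gene Adamts4 were the high end of the set, and Mmp3, Mmp13 and Adamts10 the low end. Of the 31 genes tested, 16 were higher and 12 lower in 3T3 cells at an adjusted p under 0.05 (limma across all rows, Benjamini-Hochberg). Such calls were common everywhere: 71.8% of all 22929 rows were called, 36.0% higher and 35.8% lower. Whether the 28 of 31 called here differ from that share was not tested. Levels are means of the 4 group means from the fit. Their median log2 ratio was 0.21, against -0.004 over all rows, and it was 0.06 without centring or with quantile normalization, -0.03 with whichever probes had a value and -0.08 with each probe on its own. By family, 3 of 3 TIMP genes were higher (median 1.50), 8 of 12 ADAMTS genes were higher and 4 lower (median 0.31), and 5 of 16 MMP genes were higher and 8 lower (median -0.25). Without centring, 13 of the 31 were higher and 14 lower, and with quantile normalization 14 and 14.

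**Figure D1:**
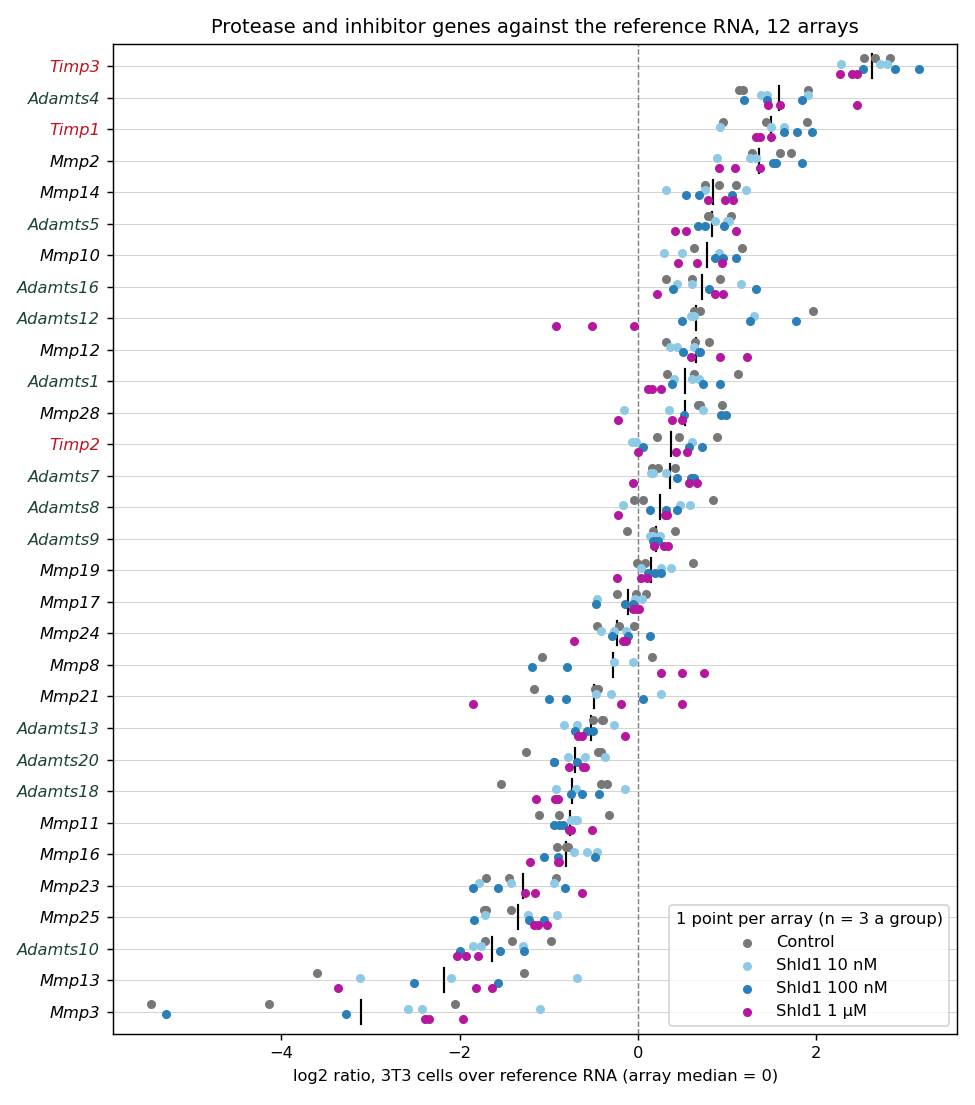
Log2 ratio of 3T3 cells over the reference RNA (x axis) for the 31 genes tested, ordered by their mean; each point is 1 array, coloured by dose, the black bars are means of the 4 group means and gene names are red for TIMP and green for ADAMTS genes. Timp3 lies highest at 2.63 and Mmp3 lowest at -3.11, and for most genes the points of the 4 groups overlap.

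Timp3, whose protein stays bound to the matrix and inhibits ADAMTS and ADAM enzymes as well as MMPs, had the highest ratio of all members. Its log2 ratio was 2.67, 2.83 and 2.54 in control cells, 2.28, 2.80 and 2.72 at 10 nM, 2.89, 2.53 and 3.16 at 100 nM, and 2.27, 2.46 and 2.40 at 1 µM. All 12 values lay between 2.27 and 3.16, and the mean was 2.63 (SE 0.07), a 6.19-fold higher signal than in the reference (adjusted p = 1.19e-10, limma). Its 2 probes gave means of 2.74 and 2.52. Timp1, a secreted inhibitor that cytokines and serum induce, came next among the inhibitors. On single arrays Timp1 was 1.90, 1.44 and 0.96 in control cells, 1.50, 1.65 and 0.92 at 10 nM, 1.96, 1.64 and 1.79 at 100 nM, and 1.50, 1.33 and 1.38 at 1 µM. Its mean was 1.50 (SE 0.09, 2.82-fold), and its control arrays alone spanned nearly the whole range of the 12. Timp2, which both inhibits MMP-2 and takes part in its activation at the cell surface, was nearer the reference. The ratio of Timp2 was 0.89, 0.21 and 0.47 in control cells, -0.02, 0.61 and -0.06 at 10 nM, 0.07, 0.58 and 0.72 at 100 nM, and -0.001, 0.55 and 0.44 at 1 µM. The mean of 0.37 (SE 0.09) was called higher (adjusted p = 0.00338, limma), though 3 of its 12 values lay at or under 0, and without centring it was 0.22 with an adjusted p of 0.0582. Timp4, the inhibitor known mainly from heart and brain, had no value on any array.

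Mmp2 (gelatinase A, a constitutive product of fibroblasts that cuts gelatin and basement membrane collagen) was the highest MMP. Its values were 1.73, 1.59 and 1.28 in control cells, 1.33, 1.27 and 0.89 at 10 nM, 1.55, 1.52 and 1.84 at 100 nM, and 1.38, 1.10 and 0.91 at 1 µM. The mean was 1.37 (SE 0.07, 2.58-fold), with an adjusted p of 1.22e-08 (limma), and all 12 values were positive. Mmp14 (MT1-MMP), the membrane protease that activates MMP-2, had a mean of 0.85 (SE 0.08, 1.80-fold). Its array values were 1.10, 0.76 and 0.92 in control cells, 0.75, 1.22 and 0.32 at 10 nM, 0.69, 0.54 and 1.05 at 100 nM, and 0.79, 1.07 and 0.98 at 1 µM. They were positive on every array, and the 4 groups overlapped. Mmp9 (gelatinase B, typical of macrophages and neutrophils) missed the rule for testing because a single 1 µM array gave a value; its 10 values ran between -1.06 and 0.28.

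The other 4 membrane-type genes were not higher. Mmp16 (MT3-MMP) and Mmp25 (MT6-MMP, a lipid-anchored protease of leukocytes) were lower at -0.80 (SE 0.06) and -1.34 (SE 0.08), and Mmp24 (MT5-MMP, a neural protease) was slightly lower at -0.23 (SE 0.07). Mmp17 (MT4-MMP) was not called at -0.11 (SE 0.06), although it was called lower without centring, at -0.26. Mmp25 gave -1.70, -1.42 and -1.73 in control cells, -1.23, -1.71 and -0.90 at 10 nM, -1.83, -1.22 and -1.05 at 100 nM, and -1.02, -1.12 and -1.16 at 1 µM. Mmp16 gave -0.91, -0.78 and -0.80 in control cells, -0.57, -0.72 and -0.45 at 10 nM, -0.48, -0.89 and -1.06 at 100 nM, and -1.21, -0.88 and -0.89 at 1 µM. These values, all below 0, are means of 2 probes for Mmp16, one of which was near the reference at 0.02 with single arrays up to 0.69.

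Among the stromelysins and collagenases the levels were furthest apart. Mmp3 (stromelysin 1, which cuts many matrix proteins and activates other proMMPs) was the lowest member. Its log2 ratio was -4.14, -5.46 and -2.05 in control cells, -2.58, -2.42 and -1.09 at 10 nM, -3.28 and -5.29 at 100 nM on 2 arrays, and -2.39, -1.96 and -2.34 at 1 µM. The mean was -3.11 (SE 0.29), an 8.61-fold lower signal than in the reference (adjusted p = 3.64e-06, limma), and single arrays lay between -5.46 and -1.09. On the 7 arrays where both of its probes had a value, the probe used averaged -3.41 and the other -2.91, and they differed by up to 3.01 on a single array. Mmp13 (collagenase 3, the main interstitial collagenase of mice) averaged -2.18 (SE 0.30, 4.53-fold lower). Its values were -3.60 and -1.28 in control cells on 2 arrays, -2.10, -3.12 and -0.68 at 10 nM, -2.51 and -1.57 at 100 nM on 2 arrays, and -1.64, -3.36 and -1.82 at 1 µM. These 2 genes were also the ones with the widest scatter, with SDs of 1.40 over 11 arrays and 0.96 over 10. Mmp11 (stromelysin 3, a product of stromal fibroblasts) was lower at -0.76 (SE 0.07). Mmp11 varied little, -1.11, -0.89 and -0.32 in control cells, -0.68, -0.71 and -0.75 at 10 nM, -0.84, -0.88 and -0.94 at 100 nM, and -0.74, -0.77 and -0.51 at 1 µM. Mmp10 (stromelysin 2) was higher, at 0.78 (SE 0.08), and Mmp8 (neutrophil collagenase) was not called at -0.28 (SE 0.13) over the 9 arrays with a value. The collagenases Mmp1a and Mmp1b had no value on any array, and Mmp7 (matrilysin, an epithelial protease) had 2 values, -1.13 and -1.10.

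Of the remaining MMP genes, Mmp12 (macrophage elastase) stood at 0.66 (SE 0.07) and Mmp28 (epilysin) at 0.53 (SE 0.09), both called higher, but each rests on 1 of 2 probes. Mmp19 was not called at 0.15 (SE 0.07). Mmp21, needed for left-right patterning, was lower at -0.49 (SE 0.18), a call lost when any of 5 single arrays was left out (100 nM replicates 2 and 3, 10 nM replicates 2 and 3, or control replicate 2), and its level was -0.32 without 1 µM replicate 2. Mmp23, a membrane-anchored protease without the hemopexin domain, was lower at -1.29 (SE 0.11). Mmp23 gave -1.71, -0.92 and -1.44 in control cells, -1.42, -1.78 and -0.94 at 10 nM, -0.81, -1.85 and -1.57 at 100 nM, and -1.27, -0.62 and -1.16 at 1 µM. All 12 of its values were below 0. Mmp20 (enamelysin, the enamel protease of teeth) had values on 5 arrays, between 0.47 and 1.43, and was not tested.

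Of the ADAMTS genes known to cut proteoglycans, 5 of the 6 tested were higher in 3T3 cells and 1, Adamts20, was lower. Adamts4 (aggrecanase 1) came next after Timp3 in the whole set. Its log2 ratio was 1.18, 1.91 and 1.14 in control cells, 1.92, 1.38 and 1.45 at 10 nM, 1.84, 1.45 and 1.19 at 100 nM, and 2.46, 1.59 and 1.46 at 1 µM. The mean was 1.58 (SE 0.11, 2.99-fold; adjusted p = 1.36e-07, limma), and 12 of 12 values lay above 1. Adamts5 (aggrecanase 2, the main aggrecanase of mouse cartilage) averaged 0.83 (SE 0.07, 1.78-fold). On single arrays Adamts5 was 1.05, 0.79 and 0.81 in control cells, 0.87, 1.02 and 1.01 at 10 nM, 0.76, 0.68 and 0.96 at 100 nM, and 1.10, 0.54 and 0.42 at 1 µM. Adamts1 (a cleaver of aggrecan and versican) averaged 0.53 (SE 0.08), Adamts8 0.26 (SE 0.10) and Adamts9, also a versican-cleaving protease, 0.21 (SE 0.06). Adamts8 and Adamts9 were no longer called without centring, at 0.11 and 0.06. Adamts15 had 1 value, -0.27.

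The other ADAMTS genes split evenly, 3 higher and 3 lower of 6. Adamts12 and Adamts7, which both cut the cartilage protein COMP, were higher at 0.66 (SE 0.15) and 0.36 (SE 0.07). Adamts16 was higher at 0.72 (SE 0.10). Adamts16 gave 0.31, 0.62 and 0.93 in control cells, 0.44, 0.61 and 1.16 at 10 nM, 0.39, 0.80 and 1.32 at 100 nM, and 0.21, 0.96 and 0.87 at 1 µM. Adamts10, which binds fibrillin microfibrils, was the lowest ADAMTS gene at -1.63 (SE 0.08, 3.09-fold lower; adjusted p = 1.72e-08, limma). Adamts18 was lower at -0.73 (SE 0.11) and Adamts13, the protease of von Willebrand factor, at -0.52 (SE 0.07). Adamts18 gave -1.53, -0.34 and -0.41 in control cells, -0.92, -0.69 and -0.14 at 10 nM, -0.75, -0.43 and -0.62 at 100 nM, and -1.14, -0.90 and -0.92 at 1 µM. Adamts10 gave -0.98, -1.71 and -1.42 in control cells, -1.28, -1.76 and -1.85 at 10 nM, -1.55, -1.99 and -1.28 at 100 nM, and -1.92, -2.03 and -1.79 at 1 µM. No value of Adamts10, and none of the Adamts18 probe used, reached 0. The other measured Adamts18 probe was above 0 on all 10 arrays with a value, and with whichever probes had a value averaged Adamts18 stood at -0.18 and was not called (adjusted p = 0.22, limma). Adamts19 had 2 values, -0.28 and -5.19.

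In this order of 31 levels, the 95% intervals of neighbours overlapped in 27 of 30 pairs. The 3 steps that stood apart were those between Timp3 and Adamts4, between Mmp2 and Mmp14, and between Mmp16 and Mmp23. The intervals do not cover differences between probes of a gene. The last step rests on averaging Mmp16 probes at -1.63 and 0.02, which lie on either side of Mmp23 at -1.29. Within groups the median SD of the tested members was 0.28, against 0.27 over all rows measured on 12 arrays.

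Several levels depended on which probe was read. Mmp12 had a mean of 0.66 with its probe measured on all 12 arrays and -0.84 with its other probe (11 arrays), and Mmp28 had 0.53 against -1.03. Adamts16 had 0.72 against -0.78 from 5 arrays, and Adamts18 -0.73 against 0.64 from 10 arrays. For Adamts20 the probe means were -1.31 and -0.09, and for Mmp16 -1.63 and 0.02, with 12 arrays behind each of these 4. For these 6 genes the level against the reference is uncertain, and the direction depends on the probe for 5 of them. Adamts8 also had probes on both sides of 0, at 0.26 and at -0.45 from 8 arrays. The probes of Timp3, Mmp3, Mmp19 and Adamts5 had the same sign.

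**Figure D2:**
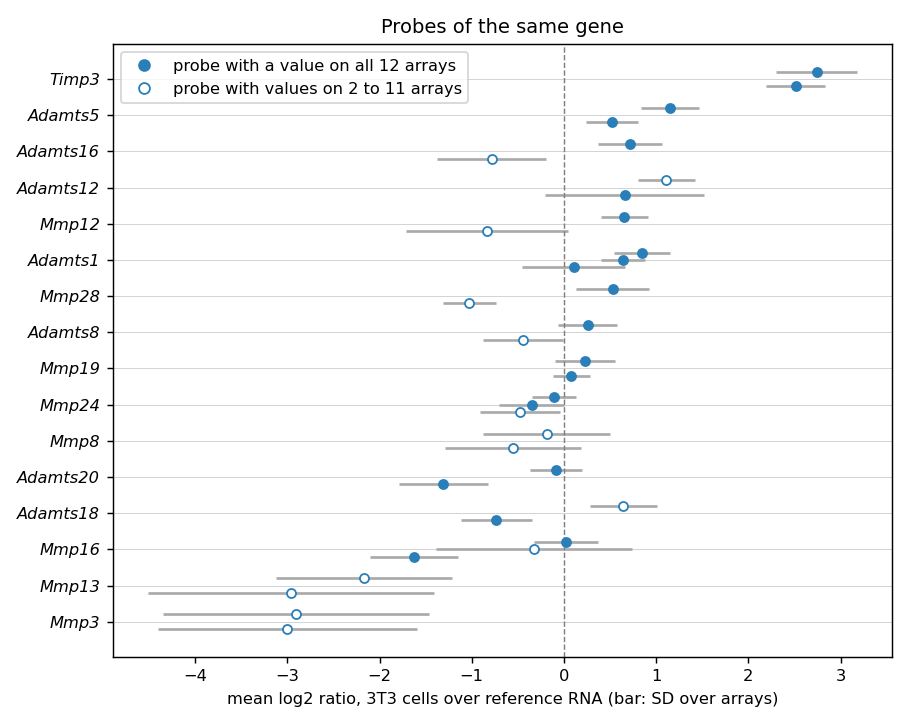
Mean log2 ratio over the reference RNA (x axis) of each probe of the genes with 2 or more measured probes; bars are SDs over arrays, and open circles mark probes blank on some arrays. The probes of Timp3 lie near 2.74 and 2.52, whereas those of Mmp12, Mmp28, Adamts8, Adamts16, Adamts18 and Mmp16 fall on both sides of 0.

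Shld1 was followed by no change in this set that passed the test. At 10 nM, 100 nM and 1 µM, 0 of the 31 genes had an adjusted p under 0.05 (limma across all 22929 rows, smallest adjusted p 1.0, 1.0 and 0.999 at the 3 doses in that order). Over all rows, 0% were called at 10 nM, 0% at 100 nM and 0.00436%, a single probe with no gene symbol, at 1 µM. At an unadjusted p under 0.05, 1 gene stood out at 10 nM, 0 at 100 nM and 4 at 1 µM, where the same cut took 2.76%, 3.36% and 4.26% of all rows. The median difference from control was -0.026 at 10 nM, 0.039 at 100 nM and -0.030 at 1 µM, against 0.004, 0.016 and -0.009 over all rows. The mean of the 3 doses called 0 of 31 (0% of all rows), the trend over dose 0 of 31 (0.00436% of all rows) and the F test over doses 0 of 31 (0.00436% of all rows); at an unadjusted p under 0.05 these took 0, 1 and 4 genes, beside 3.32%, 3.75% and 3.27% of rows. The 3 dose comparisons share the same 3 control arrays.

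The limits on what could have been missed differ between genes. The 95% interval of the difference lay within 1 log2 unit of 0 for 25 of 31 genes at 10 nM, 27 at 100 nM and 21 at 1 µM. Mmp14, for one, differed from control by -0.16 at 10 nM (interval -0.66 to 0.34), -0.16 at 100 nM (-0.66 to 0.33) and 0.02 at 1 µM (-0.48 to 0.52). For Mmp13 the interval at 1 µM ran between -1.73 and 2.07, and a 2-fold change either way was not detectable there.

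**Figure D3:**
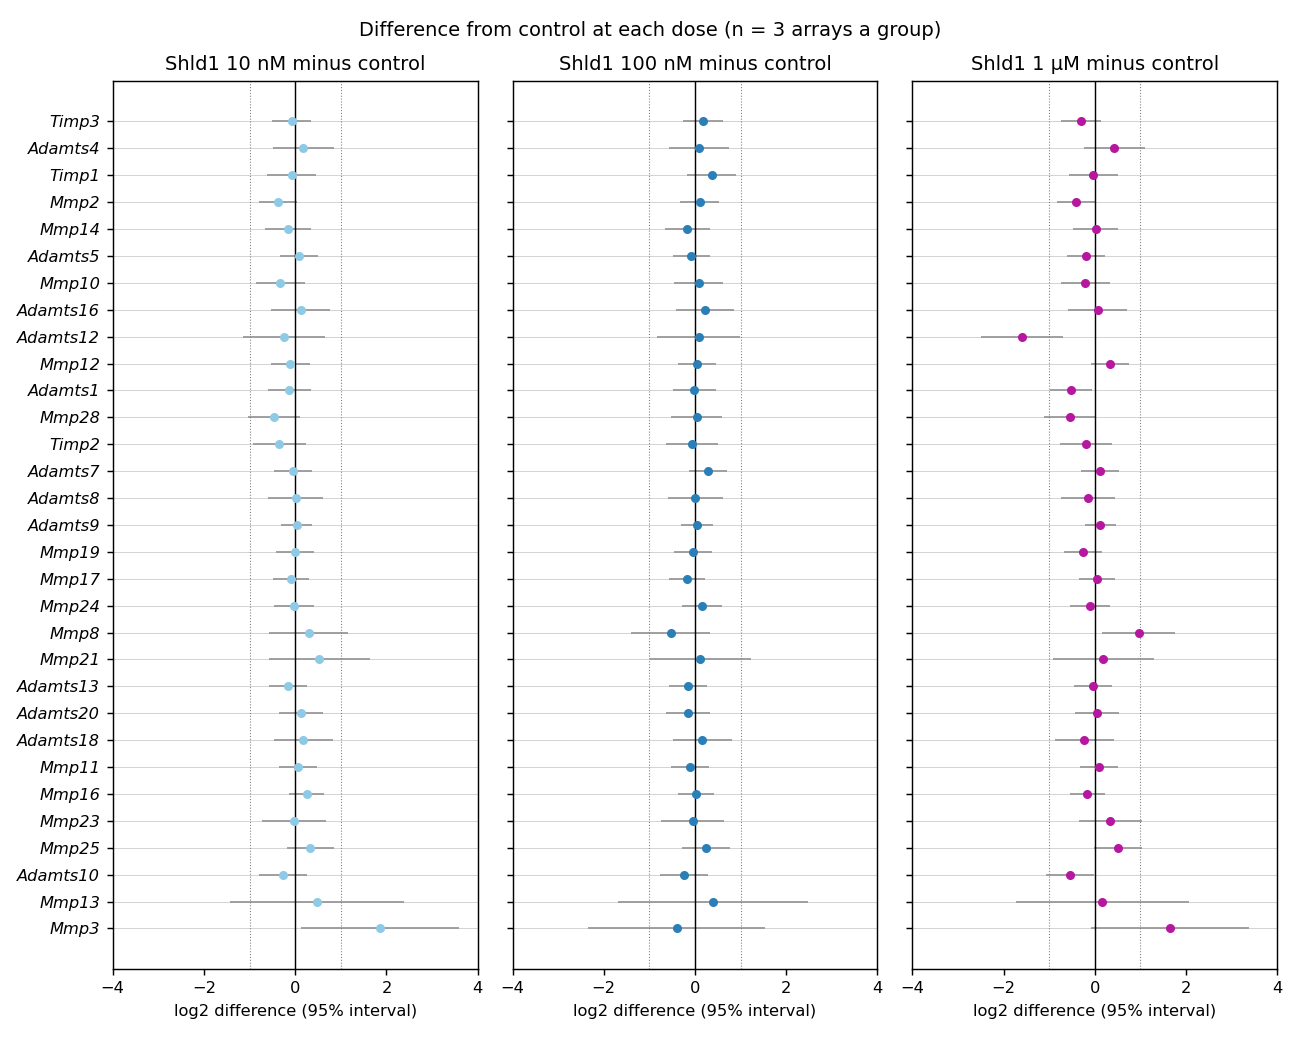
Difference in log2 ratio from control (x axis) at 10 nM, 100 nM and 1 µM Shld1 for the 31 genes, with 95% intervals from limma; dotted lines mark 1 log2 unit. No gene passed the adjusted test; Adamts12 at 1 µM (-1.59) and Mmp3 at 10 nM (1.85) and 1 µM (1.65) lie furthest from 0.

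No inhibitor passed the test at any dose. Timp3 averaged 2.68 ± 0.15 in control cells, 2.60 ± 0.28 at 10 nM, 2.86 ± 0.32 at 100 nM and 2.38 ± 0.10 at 1 µM (SD, n = 3 each). At 1 µM the difference was -0.30 (SE 0.20), and its 3 values (2.27, 2.46 and 2.40) lay below the 3 control values (2.67, 2.83 and 2.54). One of the 2 Timp3 probes carried this, with a difference of -0.55, while the other gave -0.05. Timp1 differed by -0.08 (SE 0.25) at 10 nM, 0.36 (SE 0.25) at 100 nM and -0.03 (SE 0.25) at 1 µM, and Timp2 by -0.35, -0.07 and -0.20 (SE 0.26 each). Leaving out control replicate 3 brought the Timp1 difference at 100 nM to 0.13, and leaving out control replicate 1 brought it to 0.60. The intervals of all 3 inhibitors lay within 1 log2 unit at every dose.

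At 1 µM, 6 of 28 genes with all 6 values (21.4%) had dose and control arrays that did not overlap, where 7.48% of all rows did. Mmp25 was the 1 gene higher (3.39% of all rows), and 5 were lower (4.09% of all rows): Adamts1, Adamts10, Adamts12, Mmp28 and Timp3. At 100 nM 1 of 27 did not overlap (7.77% of all rows), Adamts7, which was higher; all rows had 4.15% higher and 3.62% lower. At 10 nM 1 of 28 did not overlap (6.70% of all rows), Mmp16, also higher, where all rows had 3.50% higher and 3.20% lower. None of these genes passed the adjusted test.

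Adamts12 had the most negative difference at 1 µM among the members. Its log2 ratio was 1.97, 0.63 and 0.70 in control cells, 0.59, 1.31 and 0.63 at 10 nM, 1.26, 0.49 and 1.78 at 100 nM, and -0.91, -0.04 and -0.51 at 1 µM. The 3 values at 1 µM were its only ones below 0, and the difference was -1.59 (SE 0.41; interval -2.49 to -0.69; unadjusted p = 0.00247, adjusted p = 0.999, limma). At 10 nM and 100 nM it was -0.25 and 0.08. The second Adamts12 probe, with a value on 10 arrays, gave 1.33, 0.68 and 0.66 at 1 µM against 1.45 and 0.84 on the 2 control arrays where it was measured, a difference of -0.25. With whichever probes had a value averaged, the difference was -0.84. Control replicate 1 was the highest array at 1.97, and without it the difference was -1.15.

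Adamts1 and Adamts10 were the other ADAMTS genes with an unadjusted p under 0.05 at 1 µM. Adamts1 gave 1.13, 0.33 and 0.63 in control cells, 0.61, 0.69 and 0.41 at 10 nM, 0.74, 0.39 and 0.92 at 100 nM, and 0.11, 0.16 and 0.26 at 1 µM. Its difference was -0.52 (SE 0.21, adjusted p = 0.999), and without control replicate 1 it was -0.30. Its 3 probes differed from control by -0.92, -0.24 and -0.40. For Adamts10, control cells averaged -1.37 ± 0.37 and cells at 10 nM, 100 nM and 1 µM -1.63 ± 0.31, -1.61 ± 0.36 and -1.92 ± 0.12 (SD, n = 3 each). The difference at 1 µM was -0.55 (SE 0.24, adjusted p = 0.999), and without control replicate 1 it was -0.35. All 3 genes thus had their highest control value on that same array. Adamts4 and Adamts5, the aggrecanases, differed by 0.43 (SE 0.30) and -0.19 (SE 0.19) at 1 µM, and neither had an unadjusted p under 0.05. The 2 Adamts5 probes went opposite ways there, with differences of 0.15 (SE 0.23) and -0.54 (SE 0.23).

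Among the secreted MMPs the largest differences belonged to Mmp3. Its 10 nM values of -2.58, -2.42 and -1.09, against -4.14, -5.46 and -2.05 in control cells, gave a difference of 1.85 (SE 0.78; adjusted p = 1.0, limma). At 100 nM the 2 measured arrays gave -3.28 and -5.29, a difference of -0.40 (SE 0.87), and at 1 µM the difference was 1.65 (SE 0.78; adjusted p = 0.999). On the other Mmp3 probe, which had -3.27 and -0.96 at 10 nM and -4.90 and -4.39 at 100 nM, against -2.97, -2.45 and -1.40 in control cells, the group means differed by 0.16 at 10 nM and -2.37 at 100 nM, and no 1 µM array gave a value. With the mean of whichever probes had a value, the difference at 10 nM was 0.95. The doses did not follow an order, and the SD between the 3 control arrays was 1.72. Leaving out control replicate 2 brought the difference at 10 nM to 1.06 and at 1 µM to 0.86, and leaving out control replicate 3 brought them to 2.77 and 2.57.

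Mmp8 was the 1 member with an unadjusted p under 0.05 and a higher level at 1 µM. With the probe used, its log2 ratio was 0.16 and -1.07 in control cells on 2 arrays, -0.05 and -0.26 at 10 nM on 2 arrays, -0.79 and -1.19 at 100 nM on 2 arrays, and 0.27, 0.75 and 0.50 at 1 µM. The difference at 1 µM was 0.96 (SE 0.35, adjusted p = 0.999), and leaving out control replicate 3 gave 0.34 and leaving out control replicate 2 gave 1.58. At 10 nM and 100 nM it was 0.30 and -0.53 (0.08 at 100 nM without control replicate 2). The second Mmp8 probe gave differences of -0.74 at 10 nM, 0.11 at 100 nM and 0.34 at 1 µM. Mmp25 averaged -1.62 ± 0.17 in control cells and -1.28 ± 0.41, -1.37 ± 0.41 and -1.10 ± 0.08 at 10 nM, 100 nM and 1 µM (SD, n = 3 each), and its difference at 1 µM was 0.52 (SE 0.24; adjusted p = 0.999).

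**Figure D4:**
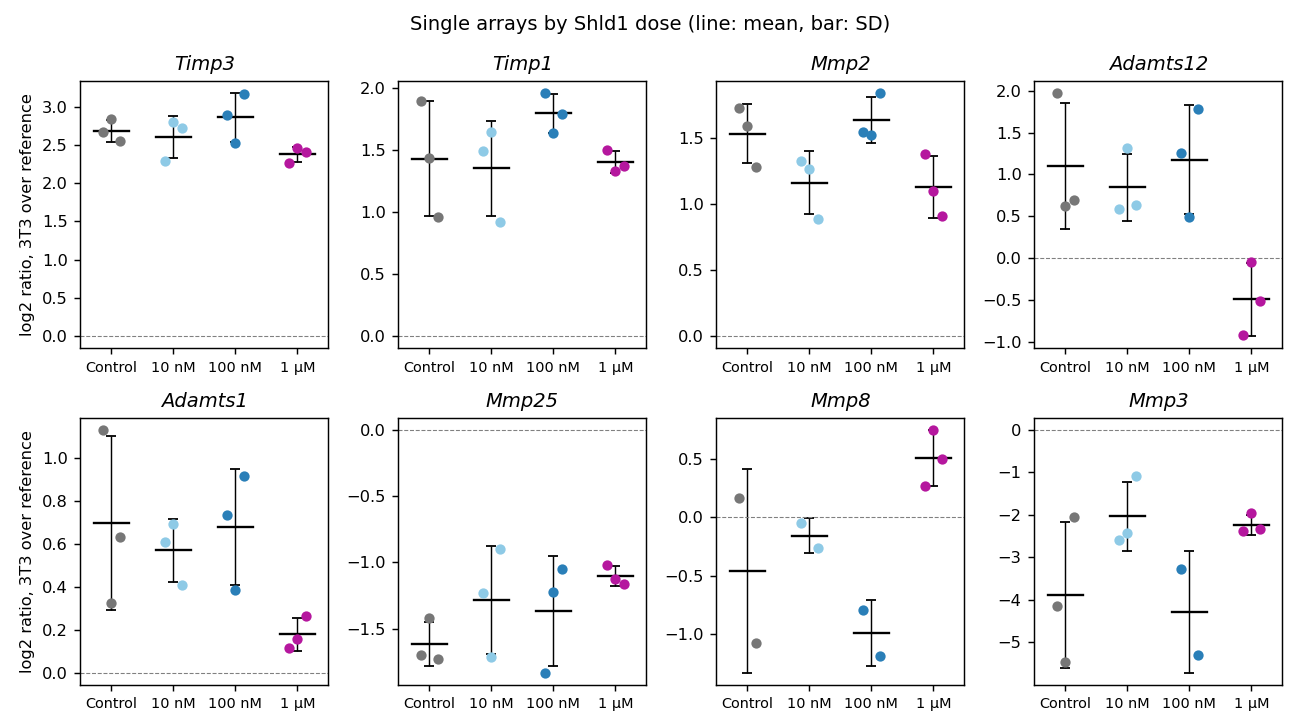
Log2 ratio over the reference RNA (y axis, a separate scale for each gene) on single arrays in control cells and at 10 nM, 100 nM and 1 µM Shld1, for 8 genes; lines are means and bars SDs, and Mmp3 and Mmp8 lack values on some arrays. The 1 µM points of Adamts12, Adamts1 and Timp3 lie below, and those of Mmp25 above, all points of the control cells.

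Mmp2 averaged 1.53 ± 0.23 in control cells, 1.16 ± 0.24 at 10 nM, 1.64 ± 0.18 at 100 nM and 1.13 ± 0.24 at 1 µM (SD, n = 3 each). Its differences from control were -0.37, 0.10 and -0.41 (SE 0.19 each) at 10 nM, 100 nM and 1 µM, which do not follow the order of the doses. Without 10 nM replicate 3 the Mmp2 difference at 10 nM was -0.24. Mmp28 had differences of -0.47, 0.04 and -0.55 (SE 0.26 each), and at 10 nM it was -0.23 without 10 nM replicate 3. Mmp28 gave 0.68, 0.70 and 0.95 in control cells, 0.73, 0.35 and -0.15 at 10 nM, 0.52, 0.99 and 0.93 at 100 nM, and -0.22, 0.50 and 0.39 at 1 µM. The second Mmp28 probe differed by 0.19, -0.004 and -0.41 at the same doses. Mmp10, also low at 10 nM, differed by -0.33 (SE 0.24) there, by 0.08 at 100 nM and by -0.21 at 1 µM. At 10 nM the difference was -0.06 without control replicate 1, -0.20 without 10 nM replicate 3, -0.50 without 10 nM replicate 2 and -0.60 without control replicate 3. Mmp10 gave 1.17 and 0.63 in control cells on 2 arrays, 0.50, 0.91 and 0.30 at 10 nM, 0.87, 1.10 and 0.96 at 100 nM, and 0.46, 0.94 and 0.66 at 1 µM. Its groups overlapped at every dose. Mmp17 differed by -0.17 (SE 0.18) at 100 nM (-0.05 without 100 nM replicate 2, -0.10 without control replicate 3 and -0.26 without control replicate 2), and its values were -0.02, -0.24 and 0.09 in control cells, -0.03, 0.05 and -0.45 at 10 nM, -0.06, -0.47 and -0.15 at 100 nM, and -0.003, -0.05 and 0.02 at 1 µM.

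Adamts7 was highest at 100 nM. Its values were 0.23, 0.16 and 0.42 in control cells, 0.31, 0.17 and 0.16 at 10 nM, 0.45, 0.64 and 0.60 at 100 nM, and 0.57, 0.66 and -0.05 at 1 µM. The difference there was 0.29 (SE 0.19). Mmp16 differed by 0.25 (SE 0.18) at 10 nM, where its 3 values (-0.57, -0.72 and -0.45) lay above the control values (-0.91, -0.78 and -0.80). Neither difference passed the adjusted test.

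The 5 tested genes of the chromosome 9 cluster showed no common level and no called change. Against the reference, Mmp10 and Mmp12 were higher, Mmp3 and Mmp13 lower and Mmp8 not called. At 1 µM 4 of the 5 were above control with a median difference of 0.33, and at 10 nM and 100 nM 3 of the 5 were, with medians of 0.30 and 0.04. The 11 tested MMP genes outside the cluster had medians of -0.03, 0.02 and 0.02 at 10 nM, 100 nM and 1 µM. With 0 genes called in either group, the difference between them was not tested.

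The fibroblast markers and the macrophage and leukocyte markers each leaned to one side at 1 µM, where 48.5% of all rows were above control. Of the 14 fibroblast markers, 13 were below control at 1 µM with a median difference of -0.33, and their mean log2 ratio per array ran between 0.77 and 1.04 at 1 µM and between 1.08 and 1.43 in control cells. Of the 10 macrophage and leukocyte markers, 9 were above control with a median of 0.25; their mean per array was -0.68 to -0.36 at 1 µM and -1.33 to -0.34 in control cells. At 10 nM 12 of the 14 fibroblast markers were also below control (median -0.08), and at 100 nM 7 were (median -0.03). Of the 10 macrophage and leukocyte markers, 6 were above control at 10 nM (median 0.185) and 3 at 100 nM (median -0.03). Over all rows, 50.7% were above control at 10 nM and 53.1% at 100 nM. None of the 24 markers passed the adjusted test at any dose. Other marker lists also had genes above control at 1 µM: 5 of 6 adipocyte, 4 of 5 muscle and 6 of 9 epithelial markers. Fewer were above control among endothelial markers (1 of 4) and chondrocyte and osteoblast markers (2 of 6). Beside these marker shifts, 15 of the 31 members were above control at 1 µM and 16 below. The lower ones included Adamts1, Adamts10, Adamts12, Mmp28 and Timp3, and the higher ones Mmp3, Mmp8, Mmp25 and Adamts4. Mmp14, Timp1 and Mmp11 differed by only 0.02, -0.03 and 0.10. Whether the marker shifts have a part in the values of the members was not tested.

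Genes that act with these proteases were read from 7 lists, and 0 genes of any list were called at any dose (the shares of all rows called are those given above). Counts of list genes higher or lower against the reference are calls at an adjusted p under 0.05 (limma). That cut called 36.0% of all rows higher and 35.8% lower. The substrates were mostly on the high side against the reference, with 15 of 25 measured genes higher and 4 lower (median 0.51). Lum (lumican) stood highest at 3.37, Nid1 (nidogen, a basement membrane linker) at 2.34 and Vcan (versican, the proteoglycan that several ADAMTS enzymes cut) at 1.95, while Vwf (von Willebrand factor) was at -0.51 and Col4a1 at -0.39. At 1 µM 15 of the 25 lay below control (median -0.04), where Lum differed by -1.26 (SE 0.47), Col3a1 by -0.45 (SE 0.19), the small proteoglycan gene Dcn by -0.38 (SE 0.18) and Vcan by -0.41 (SE 0.23). Each of these 4 had an adjusted p of 0.999 (limma). Lum, Col3a1, Dcn, Col1a1 and Col1a2 are in this list and also among the fibroblast markers above, so those counts share genes.

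The regulators of proMMP activation and clearance were evenly divided against the reference, 6 higher and 6 lower of 15. Pcolce (the enhancer of procollagen C-proteinase) was at 1.05 and Furin (the convertase that activates membrane-type MMPs) at 0.82, whereas Ctsb (cathepsin B) was at -0.54 and Pcsk7, another convertase, at -0.43. The differences with the smallest p at 1 µM were -0.37 for Ctsb, 0.20 for Cd151, 0.20 for Cd44 and -0.29 for Pcsk7. The plasminogen system activates several proMMPs. In the list of its genes and of serpins, which also holds a collagen chaperone and the thrombin receptor, 6 of 11 genes were higher and 4 lower. Serpinh1 (the collagen chaperone HSP47) was at 1.31 and F2r (the thrombin receptor) at 1.02, and Serpinb2 (plasminogen activator inhibitor 2) and Plau (urokinase) were at -1.30 and -0.99. Plg (plasminogen) differed by -1.22 (SE 0.51) at 1 µM, F2r by -0.39, Plgrkt (a plasminogen receptor) by 0.17 and Klkb1 (plasma kallikrein) by -0.31.

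The ADAM genes, which encode membrane-bound relatives of which several shed surface proteins, were 5 higher and 4 lower of 10. Adam23 was at 1.80 and Adam9 at 1.39, with Adam17 (the shedder of TNF) at -0.70 and Adam8 at -0.49. At 1 µM Adam17 differed by -0.32, Adam23 by -0.55, Adam19 by -0.36 and Adam8 by 0.20. Of the ADAMTS-like and microfibril genes, 5 of 12 were higher and 3 lower, with Fbln2 (fibulin 2) at 1.59 and Thsd4 at 0.93, and Papln (papilin) at -0.89 and Fbln1 at -0.44. Fbn2 (fibrillin 2) differed by -0.57 (SE 0.24) at 1 µM, Adamtsl4 by 0.56, Adamtsl3 by 0.32 and Fbln1 by 0.47.

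The list of astacins and other matrix proteases, which also holds the serine proteases Htra1 and Fap, lay furthest below the reference, with 0 of 11 higher and 9 lower (median -0.53). Htra1 was at -3.28 and Phex, a bone endopeptidase, at -1.89, and the highest were Fap (fibroblast activation protein) at 0.14 and Ece1 at -0.15. At 1 µM Ece1 differed by 0.31, Tll2 by 0.26, Bmp1 (procollagen C-proteinase) by -0.13 and Fap by -0.37. Of the 24 inducers of MMP transcription, 9 were higher and 11 lower (median -0.14). Hif1a was at 1.47 and Il1r1 (the interleukin 1 receptor) at 1.05, whereas Fos, an AP-1 subunit, was at -2.63 and Tnf at -1.71. The other AP-1 genes of the list did not share the level of Fos. In control cells Jund averaged 0.94 and Fosb 0.83, with Jun at -0.40, Junb at -0.41, Fosl2 at -0.30 and Fosl1 at -0.24.

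Il6 and Tnf, cytokines of this list, were the inducers with the widest differences from control at 10 nM. Il6 (interleukin 6) averaged -0.06 ± 0.36 in control cells, 1.05 ± 0.39 at 10 nM and 0.52 ± 0.20 at 1 µM (SD, n = 3 each), and 2 arrays at 100 nM gave a mean of 0.45. Its differences were 1.10 (SE 0.24, adjusted p = 1.0) at 10 nM and 0.58 (SE 0.24, adjusted p = 0.999) at 1 µM. Tnf differed by 2.10 (SE 0.94) at 10 nM and 1.66 (SE 0.94) at 1 µM, with an SD of 2.35 between its 3 control arrays. Fosl1 and Il1r1 differed by 0.34 and -0.40 at 1 µM. None of these differences passed the adjusted test.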

How the data were processed

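The deposited value per probe and array, a log2 ratio of the Cy5 sample over the Cy3 reference per the labels' dyes, was used as given. The log base, the centring and the direction are not stated, and base 2 was assumed. How the submitters subtracted background, normalized and filtered spots is not given in the labels, scanner intensities were not used, and dyes were not swapped, so bias of a probe between the dyes adds to its ratio over the reference. The number of arrays limits the precision.

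Probes were named from the platform annotation: 26173 had 1 symbol, 28 several and 12583 none. Each array was centred on its median. Where a gene had probes with values on all 12 arrays, these were averaged, and otherwise the probe with most values stood for it. The 22929 rows with a value on at least 2 arrays of every group were fitted with limma 3.58.1 (R 4.3.3; lmFit and eBayes, group as the only term, all 12 arrays), with Benjamini-Hochberg adjustment over all rows and a threshold of 0.05. The fit was also run on simulated data, with the outcome not reported here. The simulated noise was drawn independently for each array. That run therefore could not test the effect of arrays with the same replicate number deviating together. The reference is 1 RNA, so its test measures the spread between arrays.

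The members and the lists were chosen with earlier results of these data known. Values on every array are given for the TIMP genes, the 8 highest and 6 lowest members measured on all arrays, and the 3 higher and 3 lower members with the smallest p at each dose; genes of a list are those with the smallest p at 1 µM, up to 4, and the 2 highest and 2 lowest against the reference. Mmp3, Mmp13 and the remaining members are given to account for the whole set. Promoters are RefSeq sequences of GRCm38.p6. Alternatives were no centring, quantile normalization, arrays brought to the same median absolute deviation, other filters on missing values, other values per gene, named genes only, robust variance, array weights, 2 groups alone, the replicate number as a block and leaving out each array.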

Additional observations from a re-analysis of the deposited data

How the results depend on the processing

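At each dose, and for the mean, the trend and the F test, 0 members were called under every alternative run, with adjusted p-values of 0.598 or more. Among all rows, the single call at 1 µM became 0 with the replicate number as a fixed block, with named genes alone and with the 2 groups alone, and 0 to 2 when single arrays were left out: 2 without 1 µM replicate 2, and 0 without 1 µM replicate 3, control replicate 1 or control replicate 2. The call for the trend became 0 with the fixed block or named genes alone and 0 to 2 without single arrays, with the same arrays; that of the F test became 0 with the fixed block, named genes alone or array weights and 0 to 1 without single arrays. Deviations of arrays with the same replicate number correlated between -0.0959 and 0.251 (median 0.103), with 9 of 18 pairs over 0.1. For arrays of other numbers the median was -0.0543, with 4 of 36 pairs over 0.1. Arrays of the same number thus tended to deviate together, though not in every pair. The main fit took no pairing. With the number as a fixed or a random block the members called stayed at 0, and the consensus correlation of the random block was 0.0471. Against the reference, the members' median was 0.056 without centring and with quantile normalization, -0.029 with whichever probes had a value and -0.075 with each probe on its own. With those last 2 settings Mmp12 turned to -0.029 and -0.075, and Mmp28 to -0.189 and -0.265; both have probes of opposite sign. Mmp19 turned to -0.001 with quantile normalization, and Mmp8 at 100 nM, which ran from -1.149 to 0.084 over the fits without single arrays, to 0.084 without control replicate 2; the cause was not tested for either. With named genes alone 10600 rows were called against the reference, of 14523 tested. Members called higher numbered 13 to 17 and lower 10 to 15 over the alternatives. Adamts8 lost its call under 10 alternatives and Mmp21 without any of 5 arrays. Timp3, Timp1, Mmp2, Mmp14, Adamts4, Adamts5, Adamts10, Mmp25, Mmp23, Mmp13 and Mmp3 kept direction and call under each alternative that gave a value. Mmp3, Mmp8, Mmp10 and Mmp13 have no value where all 12 arrays were required. Signal over background is unknown.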
